A study of Rattus norvegicus with 12 samples.

Results

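The comparison covered the control cultures of a study of ischemia in vitro: the 3 arrays of control cultures collected at 24 h against the 3 collected at 7 h, 6 of the 12 arrays of the series, taken by the time and condition in their titles. Primary hippocampal neurons were prepared from Wistar rat embryos, labelled as embryonic day 18, and kept for 14 to 15 days in Neurobasal medium. Control cultures were placed for 2 h in a saline buffer with 25 mM glucose in an air/CO2 incubator, and were then returned to conditioned medium for a recovery of 7 h or 24 h. The other 6 arrays came from cultures given oxygen and glucose deprivation (OGD) for the same period, with the same recovery times. The control cultures were therefore handled like the OGD cultures, with an exchange of medium for saline and back, and no culture without that handling was part of the arrays. The cultures also hold glia, and in RNA from a whole culture fewer cells of a type and less RNA per cell cannot be told apart. The comparison asks which transcripts differed between control cultures 17 h apart in recovery.

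Several gene programs are known to move over such hours in cultured neurons and glia. Circadian clock genes form a feedback loop in which BMAL1 and CLOCK bind E-boxes and drive the Period, Cryptochrome and REV-ERB genes and the output factor DBP, and medium changes are known to reset that loop in many cultured cells. Immediate early genes answer synaptic activity, growth factors or mechanical disturbance without new protein synthesis. Heat shock and NRF2-driven antioxidant genes answer damaged protein and oxidants, and chemokine genes such as Ccl2 and Cxcl1 answer inflammatory signals in glia.

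RNA of each culture was labeled with Cy3 and hybridized to its own Agilent one-color array, whose spot intensity reports the RNA bound to a probe. Levels are given as log2 intensity minus the median of the array, so that 1 unit is a 2-fold difference, and a level is compared only with the same probe on other arrays. Of the spots on the control arrays, 78.35% to 86.75% were well above background, and the median spot intensity was 402 to 660.3 units. Levels correlated at 0.980 to 0.992 between arrays of the same time and at 0.977 to 0.988 between times, over all probes. The control array of 7 h, replicate 3, stood apart from the other 5 on the first principal component, which held 42.3% of the variance, at -112.6 against -8.5 and -13.3 for the other 7 h arrays. All 7 h arrays lay on slides scanned on one day at one position of the slide, and all 24 h arrays on other slides scanned on another day at another position. Time, slide, scan day and array position therefore cannot be told apart in any difference below. The slides' barcodes ran in 2 series, and the slide of control 24 h replicate 1 was in the series of the 7 h slides, so this series could be fitted as a block, which leaves 1 array at 24 h to set against those of 7 h. A spike-in control probe, designed for RNA added at labeling, read -2.63, -1.40 and -1.53 at 7 h and 2.68, 2.49 and 3.0 at 24 h relative to the array median, and its part in the results was not tested.

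Of 30367 probes, 297 (0.978%) were higher and 1192 (3.93%) lower at 24 h by limma, with p under 0.05 before adjustment and at least 2-fold, the threshold of the study's methods. After Benjamini-Hochberg adjustment over all probes, 57 (0.188%) had an adjusted p under 0.05, 18 of them higher and 39 lower. No control 7 h or 24 h array could be left out without a change in that adjusted count, which was 0 in 5 of the 6 fits and 25 without control 7 h replicate 3. Among 15154 named genes, each represented by its brightest probe, 166 (1.1%) were called higher and 597 (3.94%) lower. The lower calls gathered among dim probes. Probes well above background on all 6 arrays, 21802 in number, had 211 higher and 393 lower calls and a median change of 0.04, whereas the 3951 probes above background on no array had 2 higher and 509 lower calls and a median of -0.60. The dimmest signal the software accepted also lay lower at 24 h, at -4.00 to -4.63 relative to the array median against -3.65 to -4.07 at 7 h. The genes described below were mostly well above background on all 6 arrays, and exceptions are marked.

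**Figure D1:**
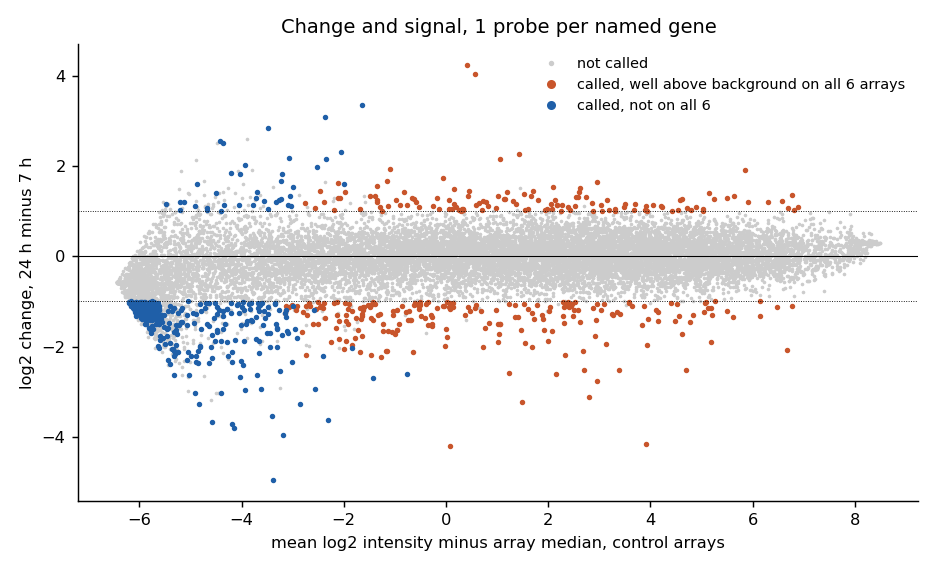
The log2 change from 7 h to 24 h is plotted against the mean level over the 6 control arrays for 1 probe of each named gene, with dotted lines at a 2-fold change. Called genes that were well above background on all 6 arrays (orange) lie on both sides of 0, and most other called genes (blue) lie below 0 at the dim end.

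Markers of the culture's cell types, and all gene lists further below, are read against the 1.1% of named genes called higher and the 3.94% called lower. All 20 neuron markers were well above background on all 6 arrays, and none was called in either direction, with a median change of 0.09 that ranged from -0.11 to 0.34 with 1 array left out. With the barcode series as a block, 2 of them were called higher and the median was 0.49. Map2, a dendritic cytoskeleton gene, read 5.18, 5.24 and 5.00 at 7 h and 5.83, 5.61 and 5.32 at 24 h. Its groups did not overlap, but the change of 0.45 ± 0.18 (SE) was under 2-fold. Rbfox3, which encodes the neuronal nuclear protein NeuN, differed by 0.25, the vesicular glutamate transporter Slc17a7 by 0.25 and the GABA-synthesizing enzyme Gad1 by 0.13, each with overlapping groups. The summed level of the neuron list was 9.81 to 10.27 at 7 h and 9.87 to 10.60 at 24 h on the log2 scale. Astrocyte markers, 14 of 15 well above background on all arrays, had no call. Their median was 0.18, or -0.10 with the barcode series as a block. The intermediate filament gene Gfap read 5.98, 6.06 and 6.25 at 7 h and 5.95, 6.58 and 7.09 at 24 h. The summed level of the astrocyte list was 10.59 to 10.80 at 7 h and 10.82 to 10.93 at 24 h. In this list 3 markers, saturated on all 6 arrays, give no usable fold.

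Glial markers of 2 other lineages each had 1 called gene. Cx3cr1, the fractalkine receptor of microglia, read 2.42, 2.70 and 2.46 at 7 h and 3.51, 4.08 and 3.74 at 24 h. Every 24 h array lay above every 7 h array, a difference of 2.37-fold (log2 1.25 ± 0.19, limma adjusted p = 0.0631). With the barcode series as a block the difference was 0.98, just under 2-fold. The other 15 microglia markers were not called. Aif1, another microglial marker, differed by 0.20, the integrin gene Itgam was well above background on 1 array of each time, and the list's median was -0.09. The summed level of the microglia list was 5.69 to 6.17 at 7 h and 5.97 to 6.23 at 24 h. Olig1, an oligodendrocyte lineage factor, read 6.43, 6.18 and 6.26 at 7 h and 6.94, 7.58 and 7.46 at 24 h, a 2.05-fold difference (adjusted p = 0.0835) that fell just under 2-fold without control 24 h replicate 2 (0.91) or replicate 3 (0.97) or control 7 h replicate 2 (0.98), and read 0.65 with the barcode series as a block. Its relative Olig2 differed by 0.19, and the myelin gene Mbp by -0.23 with an SE of 0.70. Of 16 vascular and fibroblast markers none was called. The endothelial gene Pecam1 differed by -0.52 and the fibroblast collagen gene Col1a1 by -0.21, but Col1a1 itself ranged from 2.82 to 5.17 among the 7 h cultures and from 2.46 to 5.23 among the 24 h cultures. That spread between cultures of one time was larger than the difference between times. At both times Col1a1 rose from replicate 1 to replicate 3, and the labels state no pairing of replicates.

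Among genes well above background on all 6 arrays whose groups did not overlap, 125 were called higher at 24 h. The largest of these differences belonged to 1700001K19Rikl, for which levels of -2.26, -1.82 and -1.07 at 7 h stood against 2.62, 2.31 and 2.67 at 24 h. Klf12, a Krüppel-like transcription factor, read -1.99, -1.25 and -1.13 at 7 h and 2.20, 2.40 and 3.19 at 24 h. They were 19.0-fold and 16.6-fold brighter at 24 h (log2 4.25 ± 0.32 and 4.05 ± 0.35, adjusted p = 0.0301 each). A second Klf12 probe gave a smaller difference, 1.79. Fam163b differed by 2.27 ± 0.16 (adjusted p = 0.0301), while its other probe gave 0.69. The brighter probes of these genes moved with the spike-in probe, also in the OGD cultures. The spike-in read 6.32, 3.06 and 1.86 on the OGD 24 h arrays, where 1700001K19Rikl read 5.47, 2.82 and 2.23, Klf12 5.23, 2.80 and 2.32, and Fam163b 5.04, 3.02 and 2.50. Pik3c2b, a class II phosphoinositide 3-kinase, read 2.06, 0.23 and -0.37 on the same arrays and differed by 1.94 ± 0.30 in control. Or2b4, which differed by 1.63 ± 0.35 in control, read 1.07, -1.30 and -1.67 there. All 5 were highest on OGD 24 h replicate 1, as was the spike-in, and the part of the spike-in RNA in their differences was not tested. Prkce, the epsilon isoform of protein kinase C, read 2.17, 2.04 and 2.14 at 7 h and 3.60, 3.99 and 3.75 at 24 h. The 7 h values had an SD of 0.07, and the change of 1.66 ± 0.15 passed adjustment (limma adjusted p = 0.0304), with 1.09 on its other probe. On the OGD 24 h arrays Prkce read 1.31, 2.93 and 3.45. Amigo2, a neuronal adhesion protein, differed by 2.17 ± 0.42 and by 1.51 on its second probe. Zfp385b differed by 1.73 ± 0.35. The last of the leading 10, Or2b4 and the homeobox gene Uncx, lay near the dim end or varied widely, and Or2b4 read 0.76 with normexp background correction. Uncx read -1.82, 0.37 and 0.51 at 24 h, and its call was lost without any one array other than control 24 h replicate 1, with values of 1.27 to 1.71. With the barcode series as a block it read 0.17. Apc2, a neuronal relative of the tumor suppressor APC, was singled out after its values were seen: it read 5.95 to 6.23 at 7 h and 7.36 to 7.55 at 24 h, with a change of 1.36 ± 0.14 and an adjusted p of 0.0450.

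**Figure D2:**
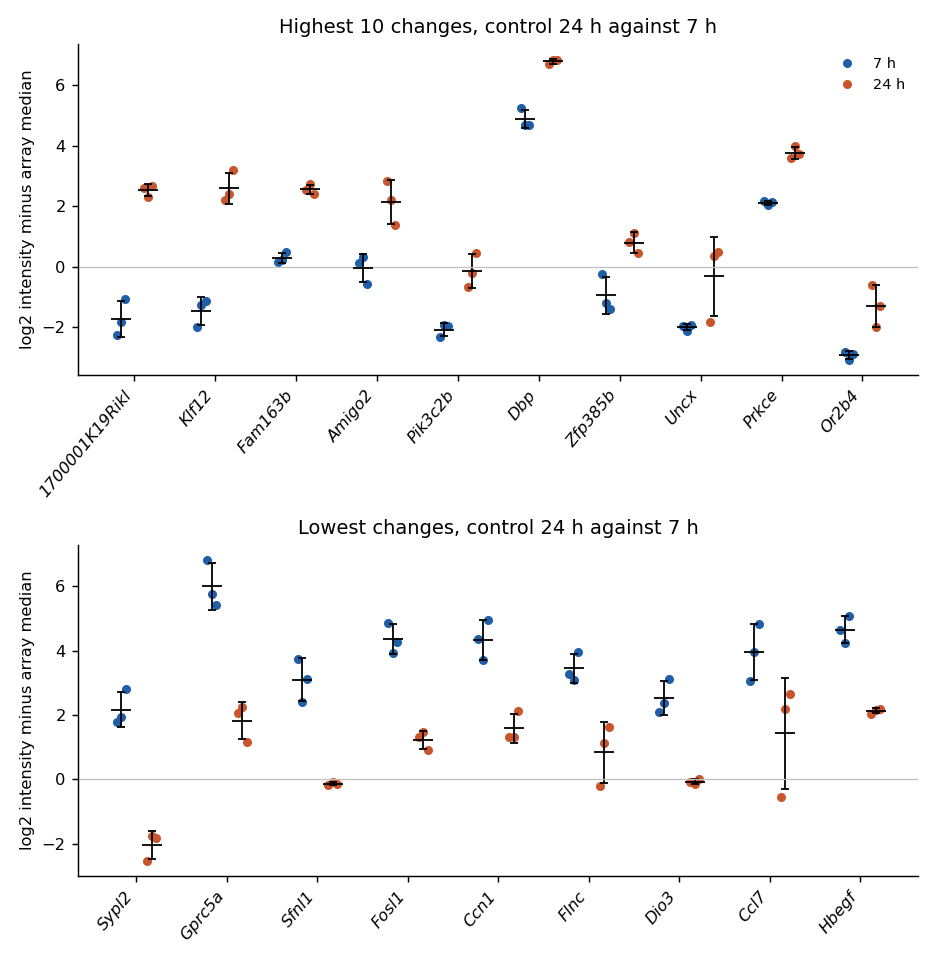
Levels on each control array (log2 intensity minus array median, points) are shown with the mean and SD of 3 arrays for the 10 highest and 9 of the 10 lowest changes among called genes with non-overlapping groups. Klf12 and 1700001K19Rikl, whose probes moved with the spike-in probe, cross from below to above the array median, and the reverse is seen for Sypl2.

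The clock genes had the highest median change of the lists examined on all 6 arrays. Of 17 clock genes with a probe, all were well above background on the 6 arrays, and 13 changes were above 0. Of the 17, 3 were called higher and none lower, beside 1.1% and 3.94% of all named genes. The median of 0.54 compares with -0.05 over all named genes. It was not the highest without control 7 h replicate 2, where it was 0.40 against 0.43 for the channel and ribosomal protein lists, or with the barcode series as a block, where it was 0.63 against 0.79 for cholesterol and 0.73 for channel genes. Dbp, the PAR-domain factor at the output of the clock, read 5.25, 4.71 and 4.71 at 7 h and 6.70, 6.85 and 6.83 at 24 h. The 24 h values had an SD of 0.08 and lay above each 7 h value, a 3.75-fold difference (log2 1.91 ± 0.19, adjusted p = 0.0395). Its 2 other probes gave 2.03 and 2.18. Per2, a repressor of the loop, read 1.36, 0.84 and 0.72 at 7 h and 2.62, 2.58 and 2.12 at 24 h. The groups were again apart, by 2.76-fold (log2 1.46 ± 0.24, limma adjusted p = 0.0644). Nfil3, the repressor that binds the same sites as DBP, read 3.37 to 3.46 at 7 h and 4.14 to 4.68 at 24 h, for a change of 1.01 ± 0.17 (adjusted p = 0.0693). Nfil3 sat at the 2-fold limit: it read 0.89 without control 24 h replicate 2, and 0.99 without control 24 h replicate 1 or control 7 h replicate 3.

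Other arms of the loop differed by less. Nr1d1, which encodes REV-ERB alpha, read 0.56, 0.56 and 0.29 at 7 h and 1.1, 1.82 and 1.17 at 24 h, a change of 0.90 ± 0.23 (limma adjusted p = 0.120). Its relative Nr1d2 differed by 0.69 ± 0.15 and Per3 by 0.80 ± 0.15, with groups apart in both, while the other Per3 probes gave 0.17 to 0.62. Per1 differed by 0.38 ± 0.15. In contrast, the Cryptochrome genes Cry1 and Cry2 differed by 0.03 and -0.20, and Bmal1, the activator of the loop, by -0.25 ± 0.22, with -0.55 on its second probe. The Cry1 and Bmal1 values overlapped between times. None of these 7 genes reached 2-fold, so none was called.

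**Figure D3:**
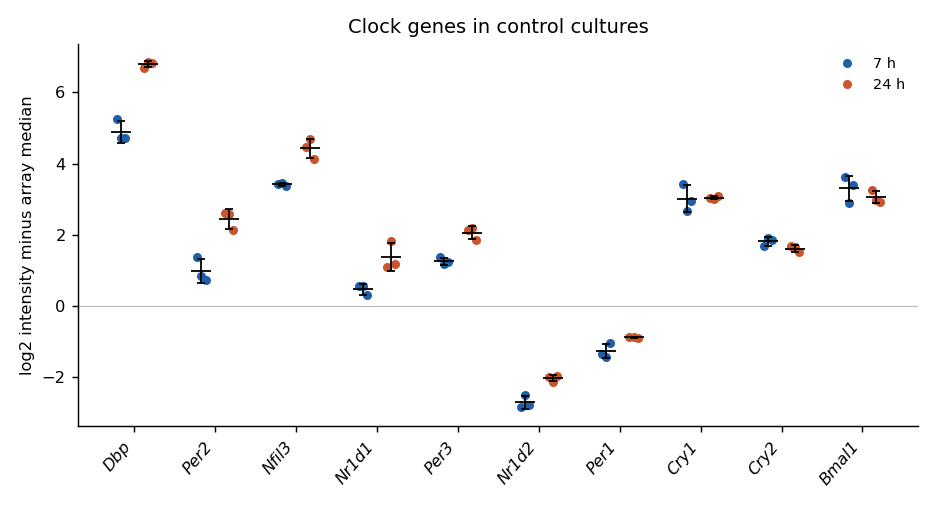
Levels of 10 clock genes on each control array (log2 intensity minus array median) are shown with the mean and SD of 3 arrays at 7 h (blue) and at 24 h (orange). Dbp and Per2 show the widest separation, and Cry1 and Bmal1 overlap.

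The starts of 2 of these genes are shown because they hold short motifs through which clock factors are known to act. The sequences are RefSeq's for build GRCr8, from 250 bases before to 50 after the annotated start, written 5′ to 3′ along the gene. Capitals mark the D-box TTATGTAA in Per2, whose first base lies 192 bases before the start, and the E-box CACGTG in Nr1d1, 191 bases before the second of 2 starts listed.
Per2, chr9:99496944-99497243, - strand: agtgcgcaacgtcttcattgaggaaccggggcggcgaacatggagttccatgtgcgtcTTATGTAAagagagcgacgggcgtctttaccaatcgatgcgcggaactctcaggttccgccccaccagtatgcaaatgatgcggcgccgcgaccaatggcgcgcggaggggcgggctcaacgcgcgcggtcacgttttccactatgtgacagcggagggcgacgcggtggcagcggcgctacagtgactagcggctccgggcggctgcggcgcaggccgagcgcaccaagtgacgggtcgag
Nr1d1, chr10:84229405-84229704, - strand: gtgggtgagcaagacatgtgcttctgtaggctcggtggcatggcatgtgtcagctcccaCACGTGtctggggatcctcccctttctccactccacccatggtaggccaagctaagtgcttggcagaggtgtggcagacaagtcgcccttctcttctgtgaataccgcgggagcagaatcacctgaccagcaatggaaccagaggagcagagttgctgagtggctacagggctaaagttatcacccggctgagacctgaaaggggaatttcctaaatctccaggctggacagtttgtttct
The E-box was searched as CACGTG, which reads the same on both strands, and the D-box as TTATGTAA or TTACGTAA on both strands, with no overlap between them. Of 33469 windows of this length in the rat table, 6.42% held the E-box and 1.01% the D-box. Of the 15 clock genes with a window, Bhlhe40, Ciart, Nr1d1 and Tef held the E-box and Per2 the D-box. A match is a description of these letters only, and no match was found in the window of Dbp.

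Synaptic and channel lists had medians above that of all named genes, with few single calls. Of 28 postsynaptic scaffold and kinase genes, 24 differed by more than 0 and the median was 0.30, but only Nlgn1 was called. Nlgn1, a postsynaptic adhesion protein, read 1.32, 0.90 and 0.75 at 7 h and 2.28, 2.60 and 2.07 at 24 h. It differed by 2.51-fold (log2 1.33 ± 0.22, limma adjusted p = 0.0662), with no overlap between the times. Of 29 voltage-gated channel genes, the pacemaker channel Hcn4 and the A-type potassium channel Kcna4 were called higher, and the list's median was 0.31, or 0.22 to 0.58 with 1 array left out and 0.73 with the barcode series as a block. Hcn4 read 0.06, -0.03 and 0.03 at 7 h and 1.33, 1.24 and 0.88 at 24 h, a change of 1.13 ± 0.16 (adjusted p = 0.0626), or 0.94 with normexp background correction. Kcna4 differed by 1.01 ± 0.28, and fell under 2-fold without control 24 h replicate 1 (0.82), control 7 h replicate 2 (0.92) or control 7 h replicate 3 (0.88). None of 31 presynaptic release genes was called, and their median was 0.29 (0.15 to 0.40 with 1 array left out, 0.50 with the block). The 24 GABA receptor and GABA handling genes had no call and a median of 0.17.

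Among 32 glutamate receptor subunits and their auxiliary proteins, 2 were called higher and none lower, with a median of 0.14, which was 0.00 without control 7 h replicate 3, 0.27 without control 24 h replicate 3 and 0.40 with the barcode series as a block. Grm5, the group I metabotropic receptor mGluR5, read 1.76, 1.54 and 1.21 at 7 h and 2.57, 2.97 and 2.72 at 24 h. Cacng7, a transmembrane AMPA receptor regulatory protein, read -0.44, -0.24 and -0.07 at 7 h and 0.97, 1.18 and 1.14 at 24 h. Neither gene's groups overlapped, and the changes were 1.25 ± 0.20 (adjusted p = 0.0644) for Grm5 and 1.35 ± 0.16 (adjusted p = 0.0552) for Cacng7. Both calls held in all alternatives with a test, apart from the scaling to the spike-in, in which no probe was called higher. Of the 31 ribosomal protein genes, none was called, but 27 were saturated on at least 1 array and 19 on all 6, so their median of 0.31 is that of largely saturated probes. Actb, saturated on all 6 arrays, and Gapdh, saturated on 3, give no usable fold. The 31 respiratory chain genes had no call and a median of 0.10.

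**Figure D4:**
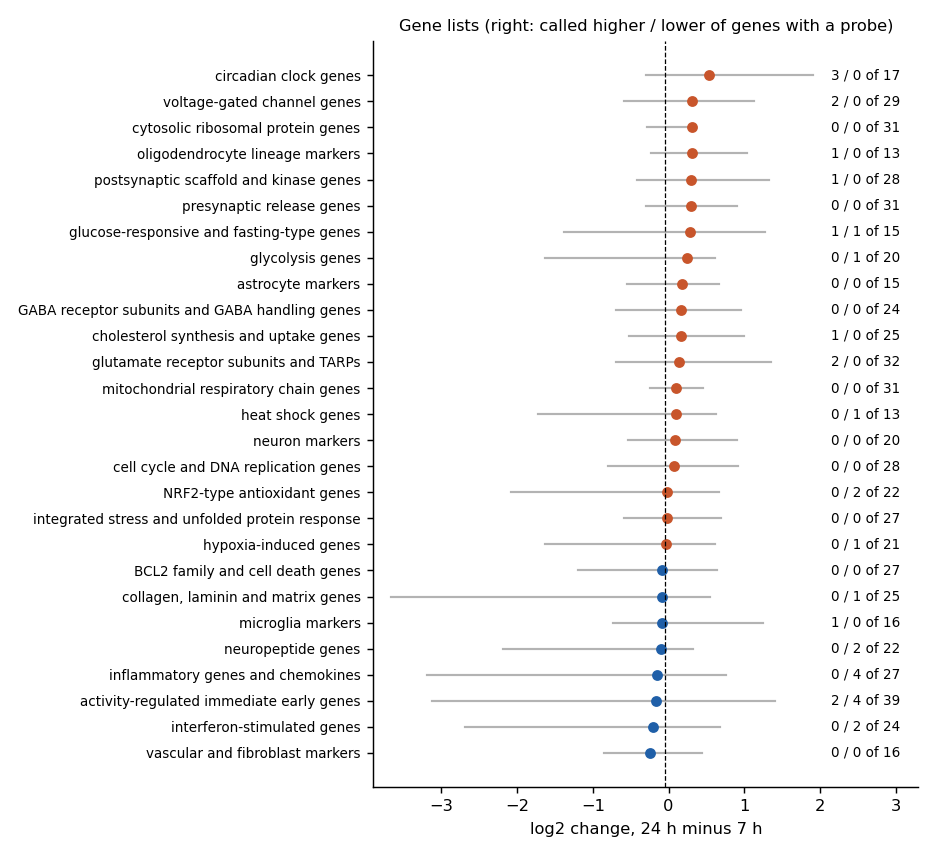
For each gene list the dot marks the median log2 change from 7 h to 24 h and the line runs from the lowest to the highest gene. The dashed line is the median of all named genes, -0.05, and the numbers give genes called higher and lower of those with a probe. Clock genes have the highest median, 0.54, and the lines reach lowest for matrix, chemokine and immediate early genes.

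At the lower end, 212 genes well above background on all 6 arrays and with non-overlapping groups were called lower at 24 h. Sypl2, a member of the synaptophysin family, read 1.77, 1.94 and 2.80 at 7 h and -2.53, -1.75 and -1.81 at 24 h, a change of -4.20 ± 0.35 (adjusted p = 0.0301). A second Sypl2 probe gave -0.28, so the 2 probes of the gene disagree. Gprc5a, an orphan receptor induced by retinoic acid, read 6.81, 5.77 and 5.41 at 7 h and 2.05, 2.26 and 1.17 at 24 h. It was 18-fold lower at 24 h (log2 -4.17 ± 0.45, adjusted p = 0.0474). Sfnl1 was 9.33-fold lower, with 24 h values of -0.16, -0.08 and -0.14. Dio3, the deiodinase that inactivates thyroid hormone, read 2.10, 2.36 and 3.11 at 7 h and -0.07, -0.15 and 0.02 at 24 h, a change of -2.59 ± 0.27 (adjusted p = 0.0464). The actin cross-linker Flnc differed by -2.60 ± 0.51.

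Another 3 of the leading lower genes encode growth factor, matrix or AP-1 proteins. Fosl1, which encodes the AP-1 subunit FRA1, read 4.85, 3.92 and 4.28 at 7 h and 1.32, 1.46 and 0.92 at 24 h, 8.69-fold lower at 24 h (log2 -3.12 ± 0.28, adjusted p = 0.0301). Hbegf, a ligand of the EGF receptor, read 4.63, 4.23 and 5.07 at 7 h and 2.04, 2.17 and 2.18 at 24 h, 5.71-fold lower (log2 -2.51 ± 0.23, adjusted p = 0.0301). In both genes each 24 h value lay more than 2 units under each 7 h value. Ccn1, a matricellular protein, read 4.35, 3.72 and 4.96 at 7 h and 1.32, 1.31 and 2.12 at 24 h (change -2.76 ± 0.38, adjusted p = 0.0626). These 3 calls held in all alternatives with a test, leaving aside the scaling to the spike-in, which called nearly all probes lower. Of 25 collagen, laminin and matrix genes, Thbs1 was called lower. It was well above background on 2 arrays at 7 h and on none at 24 h. Its 7 h values spread from -4.73 to 0.19, and its fold was at least 3.1. Its call was lost without control 24 h replicate 2 (-3.61) or replicate 3 (-3.52), it read -2.20 without control 7 h replicate 2, and with the barcode series as a block (-3.25) the call was lost as well. The matrix list's median was -0.08, but 0.06 without control 24 h replicate 1 and -0.84 with the block, where 3 genes were called lower.

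Another 3 genes, singled out after their values were seen, had a limma adjusted p under 0.05. The TWEAK receptor gene Tnfrsf12a read 6.33, 5.85 and 6.20 at 7 h and 4.03, 4.38 and 4.27 at 24 h, a change of -1.90 ± 0.19 (adjusted p = 0.0378). Sdc1, a cell surface heparan sulfate proteoglycan, read 3.59 to 3.95 at 7 h and 2.0 to 2.06 at 24 h (change -1.77 ± 0.15, adjusted p = 0.0301). The Wnt receptor gene Fzd6 differed by -2.23 ± 0.20 (adjusted p = 0.0301). In all 3 the groups were apart by more than the spread within either time.

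Several chemokine genes were lower at 24 h, with wide spread between cultures. Of 27 inflammatory genes and chemokines, 17 were well above background on all 6 arrays, 4 were called lower and none higher, and the median was -0.15. Ccl2, the monocyte chemoattractant, read 4.98, 6.02 and 6.84 at 7 h and 2.03, 4.08 and 4.20 at 24 h, 5.70-fold lower (log2 -2.51 ± 0.72, limma adjusted p = 0.139). Its neighbor in function, Ccl7, read 3.07, 3.96 and 4.83 at 7 h and -0.54, 2.19 and 2.66 at 24 h. In both genes the 24 h values lay under all the 7 h values, and the lowest came from control 24 h replicate 1. Ccl7 (change -2.52 ± 0.91) lost its call without control 7 h replicate 2 (-2.52) or replicate 3 (-2.08), and without control 24 h replicate 1 it read -1.53. With the barcode series as a block, which rests on that array, Ccl7 read -4.50 and Ccl2 -3.91. Cxcl1, a neutrophil chemoattractant, read 3.02, 2.42 and 2.59 at 7 h and 0.05, 1.1 and 0.90 at 24 h, 3.99-fold lower (log2 -2.0 ± 0.32, adjusted p = 0.0644). Cxcl10 read -1.39, 0.10 and 1.04 at 7 h and -3.73, -2.76 and -1.83 at 24 h, with 2 of the 24 h arrays well above background. Tnf, Il6 and Il1b were not called, and Il6 and Il1b were well above background on no array. The interferon-stimulated list, 24 genes with a median of -0.20, held 2 lower calls, Cxcl10 and the antiviral gene Rsad2. Rsad2 read 0.10, 1.11 and 1.73 at 7 h and -1.28, -0.56 and -1.18 at 24 h, 3.97-fold lower.

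The calls of the stress lists on all 6 arrays were lower at 24 h. Srxn1, the sulfiredoxin that repairs oxidized peroxiredoxins, read 7.65, 7.71 and 7.78 at 7 h and 5.63, 5.76 and 5.52 at 24 h. The probe was saturated on 2 of the 7 h arrays, which are taken at their measured values in the difference of 4.22-fold (log2 -2.08, limma adjusted p = 0.0301) and in the spread at 7 h. Hmox1, heme oxygenase, read 7.01, 6.28 and 7.15 at 7 h and 4.57, 5.61 and 6.28 at 24 h. Its groups met at 6.28, and its call (-1.32 ± 0.47, limma adjusted p = 0.181) was lost without control 24 h replicate 1 (-0.86) or replicate 2 (-1.39) and without control 7 h replicate 1 (-1.23) or replicate 3 (-1.15), and it read -2.24 with the barcode series as a block. The other 20 NRF2-type genes were not called and the list's median was -0.02. Bag3, the co-chaperone that directs damaged protein to autophagy, read 5.66, 5.15 and 5.60 at 7 h and 3.40, 3.72 and 4.13 at 24 h, 3.3-fold lower (log2 -1.72 ± 0.25, adjusted p = 0.0626). It was the single call among 13 heat shock genes, whose median was 0.10. Hk2, the inducible hexokinase, read 0.29, -0.58 and -0.13 at 7 h and -1.89, -2.03 and -1.37 at 24 h, a change of -1.63 ± 0.28, and was the single call among 21 hypoxia-induced and among 20 glycolysis genes. The hypoxia list's median was -0.03, but with the barcode series as a block it was 0.39, with 2 genes called higher. The integrated stress and unfolded protein response list, 27 genes, had no call and a median of -0.02, and the 27 BCL2 family and cell death genes had none and a median of -0.08.

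The starts of Srxn1 and Bag3 are shown because both hold the AP-1 site, TGACTCA or TGAGTCA on both strands, which FOS and JUN proteins are known to bind and which also forms the core of many NRF2 sites. Capitals mark the sites. Srxn1 holds 2, whose first bases lie 62 and 5 bases before the start, and Bag3 holds 1, at 194 bases before the start.
Srxn1, chr3:161064562-161064861, + strand: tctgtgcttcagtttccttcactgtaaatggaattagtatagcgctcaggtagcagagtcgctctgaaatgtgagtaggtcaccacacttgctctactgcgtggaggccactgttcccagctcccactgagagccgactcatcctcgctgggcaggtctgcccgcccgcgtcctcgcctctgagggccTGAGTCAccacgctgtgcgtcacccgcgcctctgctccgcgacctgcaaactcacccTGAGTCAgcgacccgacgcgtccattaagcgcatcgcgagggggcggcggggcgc
Bag3, chr1:192533210-192533509, + strand: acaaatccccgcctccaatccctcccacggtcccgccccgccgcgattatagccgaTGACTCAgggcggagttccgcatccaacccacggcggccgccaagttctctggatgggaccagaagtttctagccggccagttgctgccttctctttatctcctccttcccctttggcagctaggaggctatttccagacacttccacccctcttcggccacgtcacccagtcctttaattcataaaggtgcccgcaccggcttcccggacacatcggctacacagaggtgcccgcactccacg
Of all 33469 windows, 4.63% held the site. Among the 23 lower calls that the rules for named genes gave, 20 had a window, and Bag3, Cxcl10 and Srxn1 held it. Tnfrsf12a, Sdc1 and Fzd6 are not among the 23. The window of Fosl1 held none of these letters.

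Activity-regulated genes moved in both directions. Of 39 immediate early genes, all well above background, 2 were called higher and 4 lower, with a median of -0.16. Without control 24 h replicate 1 there were 0 higher and 7 lower calls and a median of -0.27. Without control 24 h replicate 3 there were 4 higher and 3 lower calls and a median of 0.03, and with the barcode series as a block the same counts and a median of 0.16, so the sign of the median depends on the arrays used. The orphan nuclear receptor genes Nr4a1 and Nr4a3 were the 2 higher ones. Nr4a1 read 4.36, 4.07 and 4.90 at 7 h and 6.65, 5.81 and 5.05 at 24 h (change 1.40 ± 0.44, limma adjusted p = 0.152), and Nr4a3 read 3.0, 2.88 and 2.91 at 7 h and 4.85, 3.99 and 3.22 at 24 h (change 1.09 ± 0.40). In both, replicate 1 was the highest of the 24 h arrays, and without it the changes were 0.99 and 0.67. With the barcode series as a block, which rests on that array, they were 2.21 and 1.92. Nr4a1 also lost its call without control 7 h replicate 1 (1.36) or replicate 2 (1.21), and Nr4a3 without any one array other than control 24 h replicate 3. Bdnf, the neurotrophin, read 3.34, 3.32 and 3.20 at 7 h and 4.29, 4.57 and 3.92 at 24 h, just under 2-fold (0.97 ± 0.20, limma adjusted p = 0.0843). Npas4, an activity-dependent transcription factor, differed by 1.03 ± 0.48 with overlapping groups. Fos, Arc and Egr1, common markers of recent activity, differed by 0.22, 0.28 and 0.44, all with overlapping groups. On the lower side, beside Fosl1 and Ccn1, Crem, a cAMP-responsive repressor, read 5.67, 5.01 and 4.96 at 7 h and 4.12, 4.03 and 3.51 at 24 h (change -1.33 ± 0.27), and its 4 other probes gave -1.67 to -1.28. Gadd45g differed by -1.0 ± 0.17 and fell under 2-fold without control 24 h replicate 3 (-0.88) or control 7 h replicate 3 (-0.93), and with the barcode series as a block (-0.84).

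Counts in the neuropeptide and cholesterol lists depended on the slide series. Of 22 neuropeptide genes, Gal and Tac1 were called lower, against 2 higher and 4 lower with the barcode series as a block. The list's median was -0.10, or 0.25 with the block. Gal, which encodes galanin, read 3.01, 2.75 and 4.48 at 7 h and 0.61, 1.58 and 1.5 at 24 h, 4.55-fold lower (log2 -2.19 ± 0.51, adjusted p = 0.104), with -1.65 on its second probe. Tac1, the precursor of substance P, read 4.33, 6.04 and 4.28 at 24 h, overlapping the 7 h values of 5.84 to 6.29, and its call was lost without any one array other than control 24 h replicate 2 (changes of -0.91 to -1.33). Of 15 glucose-responsive and fasting-type genes, Zbtb16, a target of glucocorticoid signaling, was higher by 1.28 ± 0.19 (0.90 with normexp background correction) and Angptl4, an inhibitor of lipoprotein lipase, lower, at -1.38 ± 0.34, a call lost with the barcode series as a block (-1.28). Of 25 cholesterol genes, Dhcr7, the last enzyme of one branch of the pathway, was higher by 1.0 ± 0.31, and dropped to 0.69 without control 24 h replicate 1, 0.98 without control 7 h replicate 2 and 0.90 without control 7 h replicate 3, and read 1.63 with the barcode series as a block. The block gave 8 higher and 1 lower call in the list and a median of 0.79, against 0.16 without it, and the median was -0.10 without control 24 h replicate 1 and -0.03 without control 7 h replicate 3. The 28 cell cycle genes had no call and a median of 0.07.

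The OGD cultures of the same slides give a second set of cultures over the same hours, measured with the same slides and scan days. In the OGD arrays, 9.24% of all probes were higher and 7.41% lower at 24 h at an unadjusted p under 0.05. Of the 211 higher control calls well above background on all control arrays, 189 (89.6%) had the same sign in OGD and 75 an unadjusted p under 0.05 in that direction, with a median change of 0.53 in OGD against 1.16 in control. Of the 393 lower calls, 379 (96.4%) had the same sign and 241 such a p, with medians of -1.09 and -1.26. For comparison, 76% of all such bright probes above 0 in control and 70.7% of those below 0 had the same sign in OGD. The called probes were chosen on the control change, so their control medians are a description, and what slides and scan days add to the shared sign was not tested. Gprc5a (-4.12 in OGD), Sypl2 (-4.17), Ccn1 (-2.78), Hbegf (-2.32), Dio3 (-3.14) and Gal (-2.82) were lower in OGD by amounts near those in control. Klf12 (4.95), 1700001K19Rikl (4.80) and Fam163b (3.44) were higher in OGD as well. These are the probes that moved with the spike-in probe, whose part in their differences was not tested.

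The difference between the 2 time courses was tested as an interaction over all 12 arrays. Of 30367 probes, 1086 (3.58%) had an unadjusted p under 0.05 and none (0%) an adjusted p under 0.05. Among the genes that the rules for named genes gave, 4 activity-regulated genes had the lowest of these p. Of them, Nr4a3 was described only because of its control change, which enters the difference. Nr4a1 read 5.47, 5.34 and 4.91 in OGD at 7 h and 4.49, 4.93 and 4.98 at 24 h, a change of -0.44 against 1.40 in control. The difference of -1.84 had an unadjusted p under 0.05. Nr4a3 differed by -0.80 in OGD against 1.09 in control (difference -1.89). Npas4 (-1.78) and Egr1 (-1.17) had differences of the same sign. All 4 kept an unadjusted p under 0.05 when the arrays were centered on the 75th percentile and when the slide was a fixed block. They also kept it when any one of the 12 arrays was left out, but none passed adjustment over all probes. The other activity-regulated genes described missed the threshold. Their differences were -0.77 for Arc, -0.62 for Fos, -0.30 for Gadd45g, -0.24 for Bdnf and -0.12 for Crem. They were -0.10 for Per1, -0.02 for Ccn1 and 1.04 for Fosl1. The clock genes Dbp and Per2 differed by 0.90 and 0.36 in OGD. Dbp read 5.60, 4.86 and 5.33 in OGD at 7 h and 5.02, 6.49 and 6.98 at 24 h. Per2 read 1.05, 1.16 and 1.21 in OGD at 7 h and 0.33, 1.58 and 2.59 at 24 h. Both were lowest on OGD 24 h replicate 1. The median spot intensity of that array was 130.6 units, against 373.7 and 546.4 for the other OGD 24 h arrays. The interactions of Dbp and Per2, -1.01 and -1.11, missed the threshold, which does not show that the courses were alike.

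**Figure D5:**
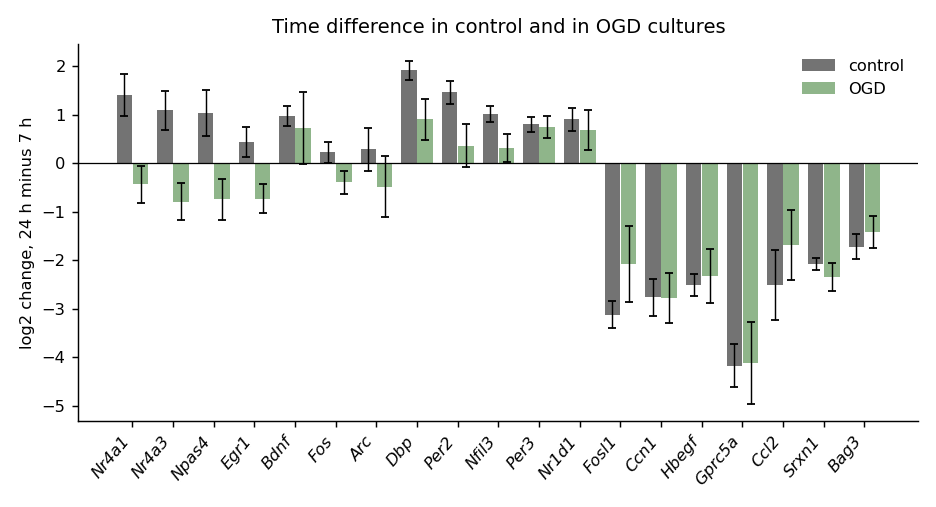
Bars give the log2 change from 7 h to 24 h in control (grey) and OGD (green) cultures for selected genes, with the SE of each change. The SE comes from the 6 control arrays alone for control and from a fit of all 12 arrays for OGD. Nr4a1, Nr4a3, Npas4, Egr1, Fos and Arc have opposite signs in the 2 conditions, and the growth factor, chemokine and stress genes on the right are lower at 24 h in both.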

How the data were processed

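RNA of 12 cultures was measured, of which the 6 control arrays are compared here. Per the labels and the methods, the authors amplified 200 ng of RNA, labeled it with Cy3, hybridized it to Agilent rat arrays and read the spot intensity with Feature Extraction 10.5.1.1. The deposited intensity was already corrected by that software, and the authors' deposited log2 table held the same values shifted by 1 constant per array. Intensities were log2 transformed, spots were averaged to 30367 probes, and the array median was subtracted. RefSeq accessions named 18004 probes, for 15154 genes, and 12363 stayed unnamed. The times were tested against each other in limma (version 3.58.1, under R 4.3.3), with p-values adjusted by the Benjamini-Hochberg method. On simulated data with 200 of 30341 probes changed, 96% of 4-fold and 45% of 2-fold changes were called, as were 369 unchanged probes, and 73 of 76 adjusted calls were changed probes. The simulation drew independent noise for each probe, with no effect of slide, scan day or culture. Its rates therefore need not hold for these arrays. A gene is represented by its brightest probe. Named genes are the 10 highest and 10 lowest calls well above background without overlap, all called genes of 28 lists, and fixed marker, clock and activity genes, less 2 genes that are not reported here and were left out of their lists. Members and lists were chosen with earlier results of these data known. Apc2, Tnfrsf12a, Sdc1 and Fzd6 were added after their values were seen and are outside the counts of named genes. Control 24 h replicate 1 lay on the barcode series of the 7 h slides. Replicates are labelled as separate samples, and 3 arrays per time limit precision.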

Additional observations from a re-analysis of the deposited data

Results flagged for a closer look

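The spike-in probe differed between the control times by 4.58 on the log2 scale, with means of -1.85 at 7 h and 2.72 at 24 h relative to the array median, a signal outside the gene probes. The part of this difference in the results was not tested.

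Of 72 genes examined, 8 had a time difference in OGD that differed from that in control at an unadjusted limma p under 0.05, beside 3.58% of all probes. Part of these genes were chosen on the control change that enters the difference. The OGD minus control difference was -1.84 for Nr4a1, -1.89 for Nr4a3, -1.78 for Npas4 and -1.17 for Egr1, by limma, and these 4 kept an unadjusted p under 0.05 in every alternative run. It was -0.88 for Cx3cr1, -0.80 for Cacng7, -0.74 for Hcn4 and -0.71 for Map2, and these 4 lost it in several alternatives. All 8 had a limma adjusted p of 1.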

How the results depend on the processing

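Apc2, Tnfrsf12a, Sdc1 and Fzd6 are not part of the gene counts below. Of the 46 called genes that the naming rules gave, 29 kept their call in every alternative with a test, apart from the scaling to the spike-in. In that scaling no probe was called higher, and its gene values are taken here relative to its median shift of -4.63. So taken, all 836 values of the 46 genes under the alternatives kept their direction. Most of these genes were chosen for their change on the same arrays. Some alternatives, such as the methods' t-test, the replicate block and leaving out dim probes, keep the log2 change by design. Those values could not reverse, so the count is a description only. Calls of all probes depended on the scaling. Against 297 higher, 1192 lower and 57 adjusted calls (19.9% of unadjusted calls higher), quantile normalization gave 446, 541 and 1584 (45.2%), normexp 105, 212 and 1597 (33.1%), and leaving out dim probes 277, 518 and 1628 (34.8%). The 75th percentile gave 242 adjusted calls, and the methods' t-test 599 lower and 136 adjusted calls. These were not always the same probes. Of the 57 adjusted calls, 55 were kept with the 75th percentile, 53 with quantile normalization and 53 without dim probes. With normexp 47 were kept, and with the t-test 23. Scaling to the spike-in moved the median of all probes by -4.63 and gave 0 higher, 30363 lower and 30363 adjusted calls. This scaling rests on 1 of 10 kinds of spike-in probe. The others were saturated or not well above background on some array. With the slide barcode series as a block there were 551 higher and 15 adjusted calls (40.3% higher), and within series 1, where the lone 24 h array is assumed to vary like the others, 544 and 0 (39.7%). Leaving out 1 array gave 269 to 432 higher, 703 to 1741 lower and 0 to 25 adjusted calls, with 13.4% to 32.5% higher. Interaction calls at an unadjusted p ranged from 767 to 2907, the latter without OGD 24 h replicate 1, against 1086, and adjusted calls from 0 to 1, the latter without OGD 7 h replicate 3. The labels state no pairing. After the mean of its time was subtracted from each probe, same-numbered arrays of the 2 times correlated at 0.26, 0.04 and 0.26. A replicate block gave 0 adjusted limma calls, with 9669 probes at an unadjusted p under 0.05. In those mean-subtracted values, each of the 6 arrays correlated best with its own number among the arrays of the other time. The cause of these differences was not tested.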
